A study of Mus musculus with 16 samples.

Results

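A set of 10 endothelial genes was followed through hippocampal RNA-seq of mice kept under non-stressed or chronic-stressed conditions. The genes are Cldn5, Cdh5, Pecam1, Ly6c1, Kdr, Flt1, Tek, Slco1c1, Slco1a4 and Abcb1a, 10 of the 55359 genes in the deposited table, each matched by its symbol. All mice were C57BL/6JNarl, and the labels name no transgene or drug. Non-stressed males, non-stressed females, chronic-stressed males and chronic-stressed females had 4 libraries each, numbered as in the sample titles. The pool size in the labels, taken here as mice per library, was 3 in every group except the chronic-stressed males, where it was 2, 2, 1 and 2. The labels give no age, no kind or length of stress and no batch, so condition and any batch that followed it cannot be told apart. They also do not say whether pools shared animals, so the spread between libraries may be partly technical. The labels name the tissue brain and the series text hippocampus. All 8 hippocampal markers examined had counts in every group, but so did all 8 choroid plexus and all 5 blood cell markers. Detection alone therefore does not identify the region.

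The walls of brain capillaries are made of endothelial cells that are sealed to each other by tight junctions, and this seal is the core of the blood-brain barrier. Claudin-5 is the main claudin of those junctions, and VE-cadherin and PECAM-1 hold neighbouring endothelial cells together. Because little can pass between the cells, solutes cross through transporters, and efflux pumps return many lipophilic compounds to the blood. Growth and upkeep of the vessels depend on endothelial receptor kinases for VEGF and the angiopoietins.

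In males, 4 of the 10 genes passed the test for a difference between chronic-stressed and non-stressed mice, against 39.7% of all 17569 tested genes. Cldn5 and Ly6c1 were lower, and the VEGF receptors Kdr and Flt1 were higher. In females, 4 of 10 passed, against 49.3% of all tested genes. Cldn5, Ly6c1 and Pecam1 were lower, and the transporter Slco1a4 was higher. In males 18.5% of all tested genes passed as higher and 21.2% as lower, and in females 22.1% and 27.3%. The 10 genes thus passed about as often as genes in general. In each sex, 4 of the 10 also had groups without overlap in CPM. The share of all tested genes without overlap was not counted, so such separation is only a description of single genes. The test was edgeR's quasi-likelihood test; passing means that the p-value, adjusted by Benjamini-Hochberg across the 17569 genes, was below 0.05. The direction of most of these changes followed the length of the transcript, a pattern shared with all genes that is described after the values. In whole tissue, fewer endothelial cells and less RNA per cell cannot be told apart.

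The smallest library held 15.2 M counts (M, 1e+06) and the largest 32.5 M, and the 10 genes had between 54 and 2196 counts in any library. Levels below are CPM, that is counts scaled to a library total of 1e+06, with n = 4 libraries per group. Errors of log2 fold changes are standard errors derived from the edgeR test, as the size of the difference divided by the square root of F. They rest on a spread shared by all 16 libraries. Compared per length, as FPKM (counts per kilobase of exon at the same library total), the mean levels over all 16 libraries were highest for Slco1c1 (12.8), Ly6c1 (12.2) and Cldn5 (9.62). Slco1a4 followed at 5.63 FPKM and Abcb1a at 2.56 FPKM. Pecam1 (1.56), Tek (1.47), Flt1 (1.21), Cdh5 (1.18) and Kdr (1.03) lay close together on the FPKM scale. Slco1a4 was above Abcb1a, and Abcb1a above Pecam1, in 16 of 16 libraries. Slco1c1 was above Ly6c1 in only 9 of 16 libraries, Pecam1 above Tek in 10 and Flt1 above Cdh5 in 8, so these neighbours have no stable order. Slco1c1 is also made by astrocytes, so its level is not purely endothelial.

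**Figure D1:**
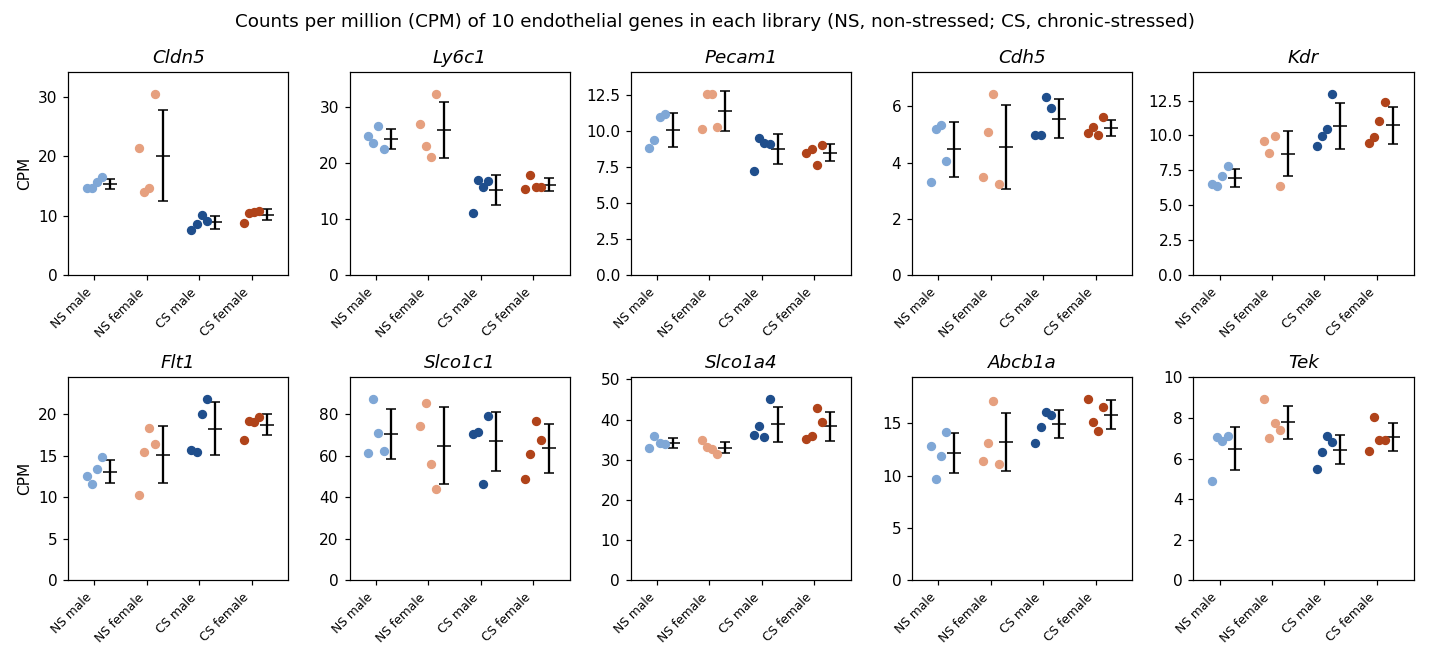
CPM (vertical axis, linear from 0) of each of the 10 genes in the 16 libraries, grouped by condition and sex; each point is 1 library and the bar beside it is the mean with the SD (n = 4). Cldn5 and Ly6c1 lie lower in all chronic-stressed libraries than in any non-stressed library, whereas the Slco1c1 groups overlap widely, between 43.8 and 87.4 CPM. How many of all tested genes separate in this way was not counted.

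The promoters of the 4 genes that passed in males are shown because they carry the decrease (Cldn5, Ly6c1) and the increase (Kdr, Flt1). Each window runs from 250 bases before to 50 bases after a RefSeq transcription start in GRCm38.p6, and is printed 5′ to 3′ on the gene's strand. Capitals mark AGGAAG, a longer form of the GGAA core recognised by many ETS factors, in the printed direction. A window without capitals can still hold the shorter core, as that of Kdr does. The windows are chr16:18776597-18776896 (plus strand) for Cldn5, chr5:75978406-75978705 (minus strand) for Kdr and chr5:147725962-147726261 (minus strand) for Flt1. Ly6c1 has an upstream window at chr15:75048788-75049087 and a downstream window at chr15:75048614-75048913, both on the minus strand, which overlap.
Cldn5: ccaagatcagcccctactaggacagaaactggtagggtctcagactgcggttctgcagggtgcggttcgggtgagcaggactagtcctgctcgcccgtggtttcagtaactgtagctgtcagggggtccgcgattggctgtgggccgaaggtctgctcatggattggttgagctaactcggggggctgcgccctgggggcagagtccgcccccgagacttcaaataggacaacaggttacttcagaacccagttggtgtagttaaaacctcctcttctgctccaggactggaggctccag
Ly6c1, upstream start: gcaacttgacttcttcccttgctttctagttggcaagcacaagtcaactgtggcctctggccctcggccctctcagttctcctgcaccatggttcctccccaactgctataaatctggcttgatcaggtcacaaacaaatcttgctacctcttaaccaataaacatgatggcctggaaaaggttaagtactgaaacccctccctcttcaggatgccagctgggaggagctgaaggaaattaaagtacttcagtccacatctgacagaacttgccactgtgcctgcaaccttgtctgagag
Ly6c1, downstream start: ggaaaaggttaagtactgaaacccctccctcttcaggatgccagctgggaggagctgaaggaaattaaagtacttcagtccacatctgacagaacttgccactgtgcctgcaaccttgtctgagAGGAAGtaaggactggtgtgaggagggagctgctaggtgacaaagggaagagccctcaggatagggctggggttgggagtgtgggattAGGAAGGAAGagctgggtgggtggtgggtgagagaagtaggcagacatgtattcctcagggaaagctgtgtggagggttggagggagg
Kdr: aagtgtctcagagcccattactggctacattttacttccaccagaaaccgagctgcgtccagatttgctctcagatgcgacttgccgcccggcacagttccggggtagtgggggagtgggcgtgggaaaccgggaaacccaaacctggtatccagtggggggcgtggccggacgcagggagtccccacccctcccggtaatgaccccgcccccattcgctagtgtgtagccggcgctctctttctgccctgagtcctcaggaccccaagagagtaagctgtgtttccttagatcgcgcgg
Flt1: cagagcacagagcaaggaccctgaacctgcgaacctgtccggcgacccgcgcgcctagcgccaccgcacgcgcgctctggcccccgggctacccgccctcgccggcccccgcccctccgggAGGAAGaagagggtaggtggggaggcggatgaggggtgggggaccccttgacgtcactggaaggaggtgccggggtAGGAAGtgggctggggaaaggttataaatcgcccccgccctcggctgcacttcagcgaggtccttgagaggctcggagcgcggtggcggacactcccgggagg

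RefSeq windows were found for 8 of the 10 genes, 9 windows in all because Ly6c1 has an upstream and a downstream one. A gene was counted if any of its windows held the motif, whereas the share over all promoters counts single windows. Ly6c1 matched AGGAAG only in its downstream window and the forkhead, CCAAT and TATA motifs only in its upstream window. Read on both strands, AGGAAG occurred in the windows of 5 of these 8 genes, and in 35.4% of all 32851 promoter windows. The forkhead core TAAACA occurred in 4 of 8, against 13.4% of all windows. CCAAT was found in 4 of 8, against 37.4%, and TATAAA in 3 of 8, against 13.6%. The palindromic glucocorticoid response element was found in 0 of 8, against 0.475% of all windows. These are matches of letters in a short window and carry no information on binding.

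Among the junction and adhesion genes, Cldn5 (ENSMUSG00000041378; GRCm39 chromosome 16, 18595597 to 18597012, plus strand) encodes claudin-5. Its CPM was 14.6, 14.6, 15.7 and 16.4 in the 4 non-stressed males and 7.52, 8.58, 10.2 and 9.18 in the chronic-stressed males. It was 21.4, 14, 14.6 and 30.5 in non-stressed females and 8.83, 10.4, 10.6 and 10.8 in chronic-stressed females. The groups did not overlap in either sex, and female libraries 4 and 1 were high among the non-stressed. Cldn5 fell by 0.77 ± 0.20 on the log2 scale in males (edgeR, adjusted p = 0.00595) and by 0.99 ± 0.20 in females (adjusted p = 0.000758). It passed in both sexes with each of the 16 libraries left out in turn, and without non-stressed female library 4 the female difference was −0.69, and without libraries 1 and 4 it was −0.46 and still passed. Cdc45, a DNA replication gene, lies within 5 kb on the opposite strand with 39.1 counts per library on average, against 269 for Cldn5, and whether counting used strand is not given in the sources used here.

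Cdh5 (VE-cadherin, chromosome 8, 104828257 to 104871143) gave no such difference. Its CPM was 3.31, 5.21, 5.33 and 4.05 in non-stressed males and 5.0, 4.99, 6.34 and 5.94 in chronic-stressed males. In females it was 3.49, 5.09, 6.45 and 3.26 without stress and 5.04, 5.25, 5.0 and 5.62 with it. The groups overlapped in both sexes, and the log2 differences, 0.33 ± 0.20 in males (edgeR, adjusted p = 0.191) and 0.18 ± 0.20 in females (adjusted p = 0.458), did not pass.

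Pecam1 (chromosome 11, 106545043 to 106641454) encodes PECAM-1, an adhesion molecule of all endothelium. It had a CPM of 8.82, 9.37, 11 and 11.2 in non-stressed and 7.26, 9.52, 9.20 and 9.09 in chronic-stressed males. Non-stressed females had 10.1, 12.6, 12.6 and 10.3, and chronic-stressed females 8.50, 8.78, 7.66 and 9.02. The female groups did not overlap and the male groups did. The log2 difference was −0.43 ± 0.12 in females (edgeR, adjusted p = 0.00734), which passed with each library left out in turn, and −0.19 ± 0.12 in males (adjusted p = 0.218). The difference between the sexes in this effect was −0.24 ± 0.17 and did not pass (edgeR interaction, adjusted p = 1.0).

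Ly6c1 (chromosome 15, 74915867 to 74920679, minus strand) encodes a GPI-anchored surface protein that is abundant on mouse brain endothelium and also found on some monocytes. Its CPM was 24.8, 23.6, 26.6 and 22.4 in non-stressed males and 11.2, 16.9, 15.8 and 16.8 in chronic-stressed males. In females it was 26.9, 23.1, 21.0 and 32.4 without stress and 15.4, 17.9, 15.7 and 15.8 with it. Every chronic-stressed library was below every non-stressed one, and chronic-stressed male library 1 was the lowest of all. The gene fell by 0.67 ± 0.14 on the log2 scale in males (edgeR, adjusted p = 0.00139) and by 0.68 ± 0.14 in females (adjusted p = 0.000949), and passed with each library left out in turn. Its near-identical neighbour Ly6c2, typical of monocytes, had a mean of 0.0356 FPKM, and reads that match both genes could have been assigned to either or dropped.

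Of the receptors, Kdr (chromosome 5, 76093487 to 76139118) encodes VEGFR2, the main signalling receptor for VEGF-A. Its CPM was 6.56, 6.40, 7.13 and 7.82 in non-stressed males and 9.24, 9.98, 10.4 and 13 in chronic-stressed males, with no overlap. Non-stressed females had 9.63, 8.77, 9.98 and 6.40, and chronic-stressed females 9.49, 9.89, 11.1 and 12.4, with overlap. Kdr rose by 0.62 ± 0.14 on the log2 scale in males (edgeR, adjusted p = 0.00282), also with each library left out in turn. In females the difference was 0.30 ± 0.14 (edgeR, adjusted p = 0.0876), and the gene passed there without non-stressed female library 3 (0.42, adjusted p = 0.0318) and with limma on TPM (0.49, adjusted p = 0.0178).

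Flt1 (chromosome 5, 147498414 to 147662821) encodes VEGFR1, which binds VEGF-A tightly and limits its supply to VEGFR2. Its CPM was 12.6, 11.5, 13.3 and 14.9 in non-stressed and 15.6, 15.4, 20.03 and 21.8 in chronic-stressed males, just without overlap. In females it was 10.3, 15.5, 18.3 and 16.4 without stress and 16.9, 19.2, 19.1 and 19.7 with it, with overlap. Flt1 rose by 0.50 ± 0.16 in males on the log2 scale (edgeR, adjusted p = 0.0191), but lost the call without non-stressed male library 2 (0.44), chronic-stressed male library 3 (0.44) or chronic-stressed male library 4 (0.40). In females the difference was 0.30 ± 0.16 (edgeR, adjusted p = 0.116), which passed when non-stressed female library 3 was left out (0.45, adjusted p = 0.0277) and with limma on TPM (0.52, adjusted p = 0.0172).

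Tek (chromosome 4, 94627526 to 94763213) encodes TIE2, the angiopoietin receptor. Its CPM ran from 4.90 to 7.09 in non-stressed males, 5.48 to 7.11 in chronic-stressed males, 7.03 to 8.94 in non-stressed females and 6.36 to 8.05 in chronic-stressed females. All groups overlapped within each sex, with log2 differences of 0.01 ± 0.14 in males (edgeR, adjusted p = 0.970) and −0.14 ± 0.14 in females (adjusted p = 0.416).

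Among the transporters, Slco1c1 (chromosome 6, 141470094 to 141515903), which carries thyroxine into the brain, varied widely within groups. Its CPM was 61.5, 87.4, 70.8 and 62.5 in non-stressed and 70.6, 71.6, 46.6 and 78.9 in chronic-stressed males. In females it was 74.1, 85.5, 55.8 and 43.8 without stress and 49.0, 61.0, 76.8 and 67.8 with it. The log2 differences were −0.07 ± 0.19 in males (edgeR, adjusted p = 0.80) and −0.02 ± 0.19 in females (adjusted p = 0.927), well within the spread of either group.

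Slco1a4 (chromosome 6, 141751166 to 141801925), an organic anion carrier of rodent brain capillaries, had the smallest errors of the 10 genes. Its CPM was 33.0, 36.0, 34.1 and 33.9 in non-stressed and 36.2, 38.4, 35.6 and 45.1 in chronic-stressed males. Non-stressed females had 34.9, 33.3, 32.6 and 31.4, and chronic-stressed females 35.1, 35.9, 42.9 and 39.4. The female groups were separated by a narrow margin, and the male groups overlapped. The log2 difference of 0.21 ± 0.08 in females passed (edgeR, adjusted p = 0.0442), whereas 0.19 ± 0.08 in males did not (adjusted p = 0.0776). In males it passed without non-stressed female library 3 (0.22, adjusted p = 0.0471), and with DESeq2, limma on TPM, only the compared groups, thinned libraries or non-stressed female libraries 1 and 4 left out, between 0.21 and 0.40. The female call was lost with only the compared groups (0.21, adjusted p = 0.0778) and without non-stressed female libraries 1 and 4 (0.25, adjusted p = 0.0634). It was also lost in 8 of 16 fits with a library left out, with adjusted p from 0.0522 to 0.159. Those libraries were non-stressed male 3 and 4 (0.21 each), non-stressed female 1 (0.23), 2 (0.21) and 4 (0.20), chronic-stressed male 2 (0.21) and chronic-stressed female 3 (0.16) and 4 (0.20).

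Abcb1a (chromosome 5, 8710077 to 8798575) encodes P-glycoprotein, the main drug efflux pump of mouse brain capillaries. Its CPM was 12.8, 9.63, 11.9 and 14.2 in non-stressed and 13.1, 14.7, 16 and 15.8 in chronic-stressed males. In females it was 11.4, 13.1, 17.1 and 11.1 without stress and 17.3, 15.1, 14.2 and 16.6 with it. The groups overlapped, and neither log2 difference passed: 0.31 ± 0.14 in males (edgeR, adjusted p = 0.0857) and 0.25 ± 0.14 in females (adjusted p = 0.137). Without non-stressed female library 3 they passed in males (0.34, adjusted p = 0.0289) and females (0.45, adjusted p = 0.00798), and without non-stressed male library 4 in males (0.40, adjusted p = 0.0455). They also passed with limma on TPM in males (0.52) and females (0.50), and in males with only the compared groups (0.34) or without non-stressed female libraries 1 and 4 (0.34). With non-stressed female library 3 left out, 7 of the 10 genes passed in females, 4 of them higher and 3 lower; in the same fit 9829 of the 17569 tested genes passed, against 8668 with all libraries. The close paralogs Abcb1b and Abcb4 had mean levels of 0.784 and 0.886 FPKM, so reads could be shared between them.

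Several related carriers were scarce, but not all. Slco1a1 was listed at 0 FPKM, Slco1a6 had a mean of 0.0206 FPKM, Slco1b2 0.104 FPKM and Slco1a5 0.421 FPKM. Slco2b1 had 2.56 FPKM, the same level as Abcb1a. It passed as higher in females (0.33 ± 0.10, edgeR, adjusted p = 0.0141) and not in males (0.20 ± 0.10, adjusted p = 0.136). With the length and GC trend removed it did not pass in females (0.14, edgeR, adjusted p = 0.208). Of other claudins, Cldn3 had 0.801 FPKM and Cldn12 9.06 FPKM.

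The stress differences of the 10 genes lined up with exonic length, as they did in the whole table. Cldn5 (1416 bases) and Ly6c1 (1677 bases) lie among genes of 1 to 2 kb, whose median log2 difference was −0.38 in males and −0.49 in females over 2252 genes. Of that class, 41.6% passed as lower in males and 53.0% in females. Kdr (9030 bases) and Flt1 (13504 bases) lie among the 2543 genes over 8 kb, with medians of 0.33 in males and 0.34 in females. In that class, 54.1% passed as higher in males and 59.3% in females. The other 6 genes measure 4 to 8 kb, a class with medians of 0.08 in males and 0.11 in females. Set against the interquartile range of their length class, Pecam1 and Cldn5 lay below it in both sexes, Ly6c1 in males and Tek, just, in females. Kdr, Cdh5 and Abcb1a lay above it in males, and the other values lay inside it.

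**Figure D2:**
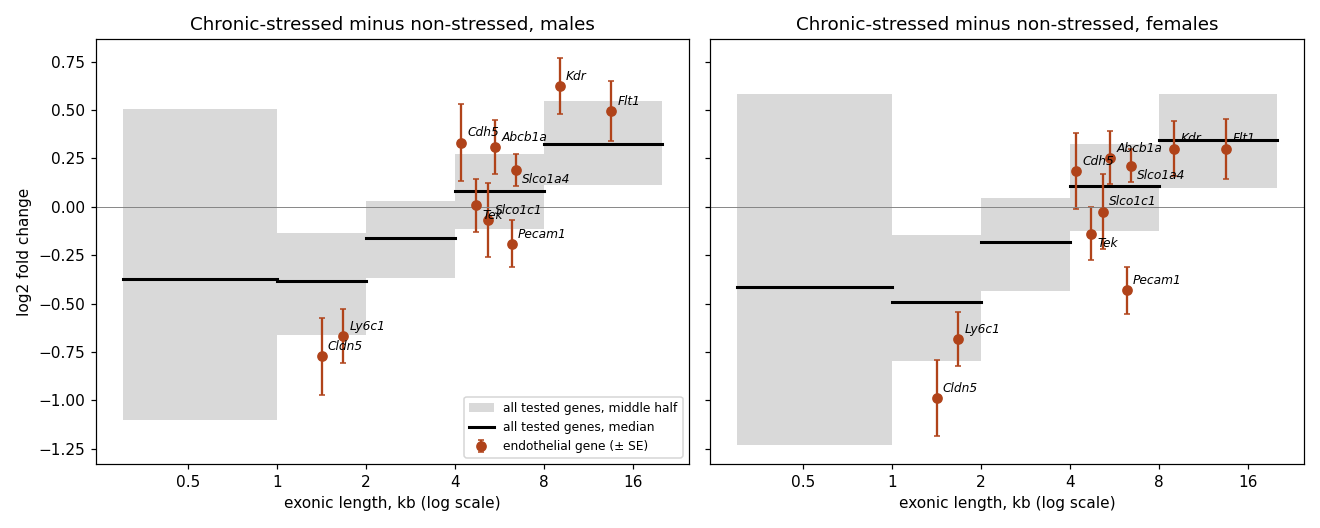
Log2 fold change (chronic-stressed minus non-stressed, vertical axis) against exonic length in kb (log scale) for the 10 genes, with SE bars, over the medians (black lines) and interquartile ranges (grey boxes) of all tested genes in 5 length classes. The shortest pair, Cldn5 and Ly6c1, and the longest pair, Kdr and Flt1, lie on the same sides of 0 as their length classes, and Pecam1 lies below its class.

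A second fit removed from each library its smooth trend of counts with exonic length and GC content. In males, 1 of the 10 genes then passed, against 32% of the 17357 genes with a GC value, and in females 2 passed, against 39.8%. All 3 calls were lower; of all genes in that fit, 16.1% passed as higher and 15.9% as lower in males, and 17.8% and 21.9% in females. Pecam1 was lower in both sexes, by −0.35 on the log2 scale in males (edgeR, adjusted p = 0.0173) and −0.65 in females (adjusted p = 0.000198). Cldn5 passed in females at −0.60 (edgeR, adjusted p = 0.0180) and not in males at −0.36 (adjusted p = 0.169). Ly6c1 was at −0.29 in each sex and no longer passed (edgeR, adjusted p = 0.0780 in males and 0.0683 in females). Kdr in males was at 0.32 (edgeR, adjusted p = 0.0684) and Flt1 at 0.05 (adjusted p = 0.83). In females Kdr was at −0.05 and Flt1 at −0.21, opposite in sign to the first fit, and Slco1a4 was at 0.16 (edgeR, adjusted p = 0.182). Cdh5 differed little between the fits, at 0.35 in males and 0.16 in females. Whether the length trend comes from the tissue or from RNA and library preparation was not tested.

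**Figure D3:**
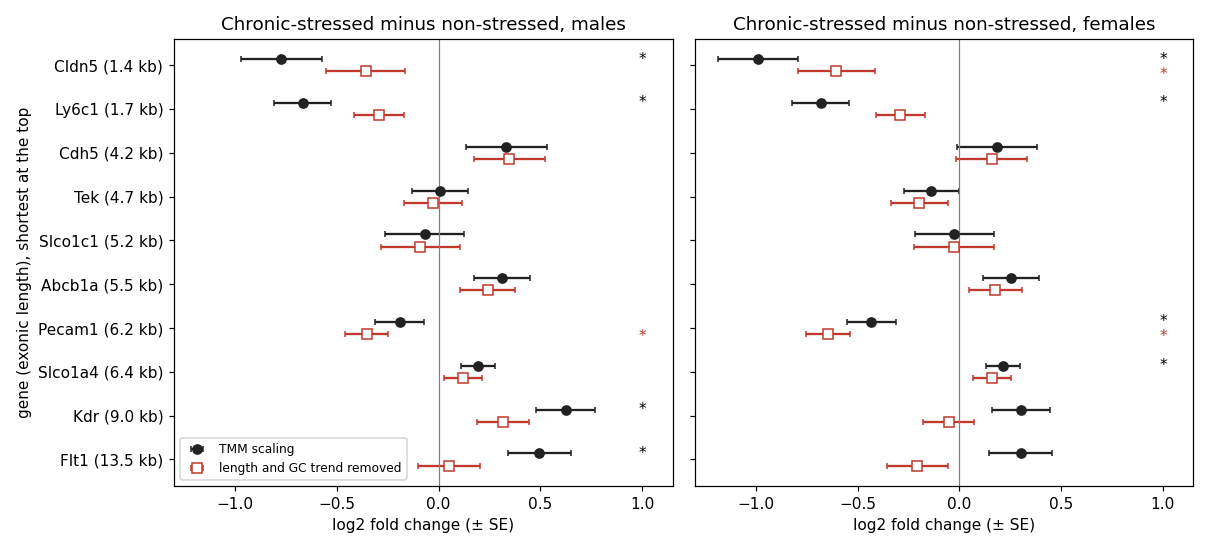
Log2 fold change (chronic-stressed minus non-stressed, horizontal axis, with SE) of the 10 genes, ordered from the shortest at the top, in males and females; black circles are the fit with TMM scaling and red squares the fit with the length and GC trend removed. An asterisk in the colour of the fit marks an adjusted p under 0.05; Pecam1 moves further from 0 in the second fit, whereas Kdr and Flt1 move towards or across it.

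The summed level of the 10 genes did not separate the groups. Summed over the 10 genes, CPM ran from 183 to 211 (median 199) in non-stressed males and from 177 to 223 (median 189) in chronic-stressed males. In females the sum ran from 193 to 218 (median 204) without stress and from 172 to 210 (median 198) with it. The groups overlapped in both sexes. Much of the sum was Slco1c1, with group means from 63.6 to 70.5 CPM, and Slco1a4, with means from 33.0 to 38.8 CPM. It therefore says little about the less abundant genes. The median log2 difference of the 10 genes was 0.10 in males and 0.08 in females, against −0.03 for all tested genes in each. On TPM, where each library is scaled after division by length, limma called 6 of the 10 genes in each sex, 4 higher and 2 lower, against 46.1% of all tested genes in males and 55.2% in females. All genes moved with that scaling: the median log2 difference was −0.03 on FPKM and 0.19 on TPM in males, and −0.01 and 0.22 in females. Of limma's calls, 44.3% were higher on FPKM and 75.3% on TPM in males, and 46.5% and 73.8% in females. Pecam1 was at 0.04 in males and −0.16 in females on TPM and passed in neither.

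Between the sexes, none of the 10 genes passed. In non-stressed mice, edgeR called 0 of 10 and 0.0455% of all tested genes, with 1 of the 10 at an unadjusted p under 0.05. That gene was Kdr, at 0.32 ± 0.15 (female minus male, log2; edgeR, adjusted p = 0.651), and the 10 ranged from −0.12 to 0.40. In chronic-stressed mice edgeR called 0 of 10 and 0.0398% of all tested genes, with 0 of 10 at an unadjusted p under 0.05 and a range from −0.11 to 0.18. The smallest p there was that of Cldn5, at 0.18 ± 0.20 (edgeR, adjusted p = 1). For the difference of the stress effect between the sexes (female minus male), edgeR called 0 of 10 and 0% of all tested genes; 0 of the 10 and 374 of all tested genes had an unadjusted p under 0.05. The values ranged from −0.32 to 0.04, with Kdr at −0.32 ± 0.20. DESeq2 and limma also called 0 of the 10 genes in each of these comparisons. Of all 17569 tested genes, DESeq2 called 15 between the sexes in non-stressed mice, 11 in chronic-stressed mice and 0 for the interaction. The limma fits called 10 to 12, 9, and 0 or 1. A gene that passed in 1 sex, such as Kdr, Flt1, Pecam1 or Slco1a4, is therefore not shown to respond differently in the other.

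Of 22 other endothelial genes, 5 passed as higher and 5 as lower in males, and 4 and 6 in females. Their median log2 difference was 0.02 in males and 0.00 in females. With the length and GC trend removed, 4 and 3 passed in males and 0 and 5 in females. Ly6a, a relative of Ly6c1 on brain endothelium, fell in both sexes, by 0.78 ± 0.15 in males (edgeR, adjusted p = 0.000675) and 0.95 ± 0.15 in females (adjusted p = 0.000110). Rasip1, which vessels need to form a lumen, fell by 0.86 ± 0.13 in males (edgeR, adjusted p = 0.000113) and 0.85 ± 0.13 in females (adjusted p = 0.000112). With that trend removed, Ly6a was at −0.34 in males and −0.47 in females and Rasip1 at −0.73 and −0.75, and all 4 values passed; with the length trend alone removed, Ly6a in males was at −0.32 and did not pass (edgeR, adjusted p = 0.0662). Genes on the opposite strand overlap Rasip1 with up to 135 counts per library on average, against its own 106. Ptprb, the phosphatase that restrains TIE2, rose by 0.70 ± 0.16 in males and 0.68 ± 0.16 in females (edgeR, adjusted p = 0.00223 and 0.00197), and its values were 0.26 and 0.23, not passing, with the trend removed. Itm2a fell by 0.30 ± 0.10 in males and 0.48 ± 0.10 in females (edgeR, adjusted p = 0.0278 and 0.00127). With the trend removed its values turned positive, 0.17 and 0.06, and did not pass (edgeR, adjusted p = 0.110 and 0.581). The male call of Itm2a was lost without non-stressed male library 1 (−0.22), 2 (−0.30) or 3 (−0.30) or chronic-stressed male library 1 (−0.26) or 3 (−0.28), with no filter (−0.26) and on TPM (−0.06).

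Of 13 further tight junction genes, 3 passed as higher and 1 as lower in males, and 2 and 0 in females, with medians of 0.17 and 0.15. With the trend removed, 3 and 0 passed in males and 1 and 0 in females. Tjp1, the ZO-1 scaffold beneath the claudins, rose by 0.51 ± 0.12 in males and 0.57 ± 0.12 in females (edgeR, adjusted p = 0.00255 and 0.000900). It also passed with the trend removed, at 0.26 and 0.31. Afdn, the scaffold afadin, rose by 0.50 ± 0.10 and 0.46 ± 0.10 (edgeR, adjusted p = 0.00108 and 0.00142) and stood at 0.14 and 0.07, not passing, with the trend removed. Both scaffolds are made by many brain cells besides endothelium.

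Of 17 other transporters and receptors of the barrier, 6 passed as higher and 0 as lower in males, and 8 and 2 in females. Their medians were 0.30 and 0.24. With the trend removed, 4 and 0 passed in males and 6 and 0 in females. Tfrc, the transferrin receptor, rose by 0.51 ± 0.08 in males and 0.45 ± 0.08 in females (edgeR, adjusted p = 9.84e-05 and 0.000242). Slc7a5, the carrier of large neutral amino acids, rose by 0.50 ± 0.14 and 0.46 ± 0.14 (edgeR, adjusted p = 0.00922 and 0.0125), and both genes passed with the trend removed. The female call of Slc7a5 was lost with only the compared groups (0.46, adjusted p = 0.0525) and without non-stressed female libraries 1 and 4 (0.20, adjusted p = 0.157). Insr, the insulin receptor, rose by 0.62 ± 0.06 and 0.53 ± 0.06 (edgeR, adjusted p = 1.68e-06 and 8.97e-06), and Lrp1, a large endocytic receptor, by 0.76 ± 0.21 and 0.82 ± 0.21 (adjusted p = 0.0104 and 0.00511). With the trend removed these 2 long genes did not pass, at 0.18 and 0.05 for Insr and 0.24 and 0.26 for Lrp1. Neurons or glia also express these 4 genes. Mfsd2a, named here after its values were seen, also passed as higher, at 0.30 in males and 0.24 in females (edgeR, adjusted p = 0.0175 and 0.0419). With the trend removed it was at 0.59 and 0.51 (edgeR, adjusted p = 8.41e-05 and 0.000288). The glucose carrier Slc2a1 was at 0.02 and −0.04 and passed in neither sex.

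**Figure D4:**
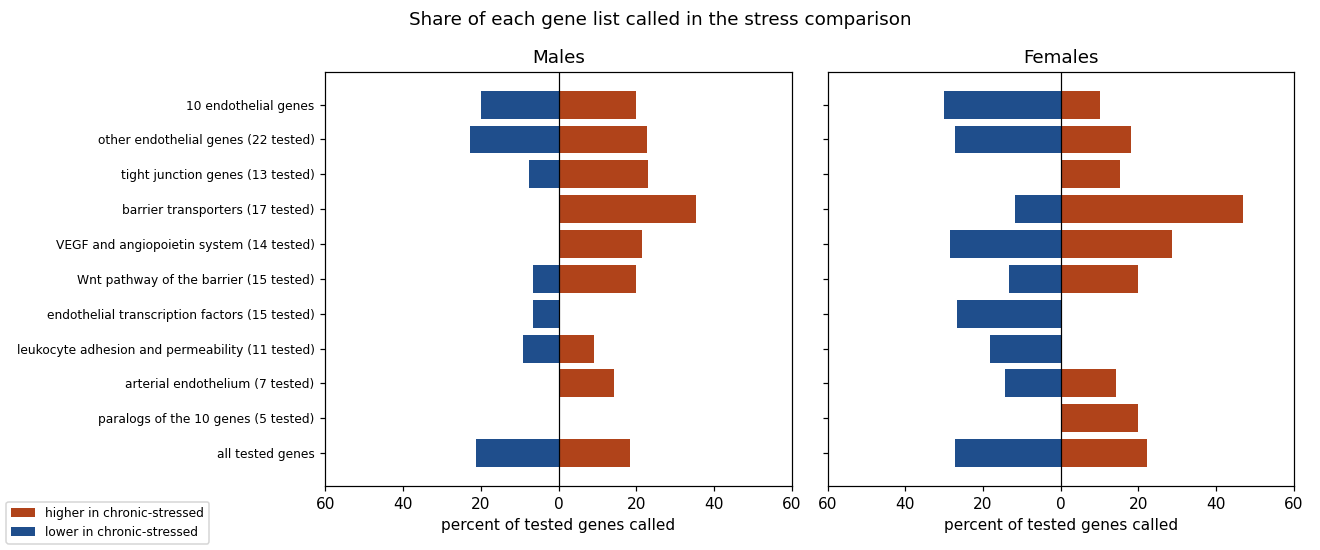
Percent of the tested genes of each list (rows) that passed at an adjusted p under 0.05 as higher (right, red) or lower (left, blue) in chronic-stressed mice, in males and females, on a linear axis that runs both ways from 0. Of the 10 endothelial genes, 2 were higher and 2 lower in males, beside 18.5% and 21.2% of all tested genes in the bottom row; of the barrier transporters, 6 of 17 were higher and 0 lower in males.

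Of the VEGF and angiopoietin system, 14 of 17 listed genes were tested, with 3 higher and 0 lower in males, 4 and 4 in females, and medians of 0.04 and −0.04. The trend-removed counts were 3 and 0 in males and 2 and 3 in females. The VEGF co-receptor Nrp1 rose by 0.83 ± 0.12 and 0.73 ± 0.12 (edgeR, adjusted p = 4.56e-05 and 0.000131) and passed with the trend removed, at 0.59 and 0.50. Nrp2 rose by 0.42 ± 0.10 and 0.53 ± 0.10 (edgeR, adjusted p = 0.00483 and 0.000692), but stood at 0.02 and 0.07 with the trend removed. Epas1, the hypoxia-inducible factor HIF-2α, rose by 0.40 ± 0.09 in males and 0.27 ± 0.09 in females (edgeR, adjusted p = 0.00206 and 0.0183). Its female call was lost without non-stressed female library 1 (0.20) or chronic-stressed female library 4 (0.22), without non-stressed female libraries 1 and 4 (0.15), with only the compared groups (0.27) and with the trend removed (0.10). Mean levels of Nrp1, Nrp2 and Epas1 were 5.87, 6.43 and 18.0 FPKM, above those of Kdr (1.03) and Flt1 (1.21). Which cells carried these changes was not tested.

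Of the Wnt pathway that maintains the barrier, 15 of 16 genes were tested, with 3 higher and 1 lower in males, 3 and 2 in females, and medians of 0.16 and 0.09. The trend-removed fit gave 3 and 0 in males and 3 and 2 in females. Fzd4, the endothelial receptor for norrin, rose by 0.76 ± 0.24 in males and 0.77 ± 0.24 in females (edgeR, adjusted p = 0.0194 and 0.0150). The male call was lost without non-stressed male library 1 (0.66) or chronic-stressed male library 1 (0.68), and the female call without non-stressed female libraries 1 and 4 (0.53). Its co-receptor Lrp6 rose by 0.77 ± 0.08 and 0.54 ± 0.08 (edgeR, adjusted p = 2.30e-06 and 8.00e-05), and β-catenin, Ctnnb1, by 0.64 ± 0.06 and 0.51 ± 0.06 (adjusted p = 9.75e-07 and 1.08e-05). Tspan12, which enhances norrin signalling through Fzd4, fell by 0.42 ± 0.09 and 0.49 ± 0.09 (edgeR, adjusted p = 0.00160 and 0.000371). With the trend removed, Ctnnb1 passed in both sexes, Lrp6 in males (0.35) and not in females (0.09), and Tspan12 in neither (−0.19 and −0.22); Tspan12 in males also did not pass on TPM (−0.18). Fzd4 was at 0.57 in each sex with the trend removed, just past the threshold in females (edgeR, adjusted p = 0.0486) and just short of it in males (adjusted p = 0.0568). Lrp6 and Ctnnb1 are expressed by most cells.

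Of 15 tested endothelial transcription factors of 19 listed, 0 passed as higher and 1 as lower in males, and 0 and 4 in females, with a median of −0.11 in each sex. The trend-removed fit gave 0 and 0 in males and 0 and 4 in females. Those 4, named here after their values were seen, were Foxc1 (−1.38), Klf2 (−0.84), Nr2f2 (−0.71) and Ets2 (−0.31). Their adjusted p were 0.000985, 0.00543, 0.000656 and 0.00461 (edgeR), and Lmo2 was not among them. Lmo2 fell by 0.32 ± 0.10 in males and 0.37 ± 0.10 in females (edgeR, adjusted p = 0.0180 and 0.00611). The male call was lost without non-stressed male library 1 (−0.26) or chronic-stressed male library 4 (−0.29), and with no filter (−0.28). The female call was lost without non-stressed female libraries 1 and 4 (−0.17), and both calls with the trend removed (−0.02 and −0.08) and on TPM (−0.09 and −0.11). Lmo2 had a mean of 7.18 FPKM, against 0.524 for Erg and 0.621 for Fli1, and which cells carried its change was not tested. Of 11 tested genes of leukocyte adhesion and permeability, 1 was higher and 1 lower in males, and 0 and 2 in females. Cav2, the caveolar protein caveolin-2, fell by 0.44 ± 0.10 and 0.40 ± 0.10 (edgeR, adjusted p = 0.00182 and 0.00292), and with the trend removed passed in males (−0.21) and not in females (−0.12); on TPM it passed in neither (−0.21 and −0.15). In the trend-removed fit, 3 and 1 genes of that list passed in males and 0 and 1 in females. Of 7 tested arterial genes, 1 and 0 passed in males and 1 and 1 in females.

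Markers of neighbouring cells were counted beside these genes, and their part in the results was not tested. Of 12 tested pericyte and smooth muscle markers, 4 passed as higher and 0 as lower in males, and 4 and 4 in females; with the trend removed, 2 and 0 passed in each sex. Their summed CPM overlapped between conditions, from 207 to 234 in non-stressed and 209 to 237 in chronic-stressed males, and and 215 to 245 against 208 to 232 in females. Of 8 tested fibroblast markers, 1 and 0 passed in males and 0 and 2 in females, or 2 and 0 and 1 and 1 with the trend removed; the sum ran from 650 to 995 and 696 to 1171 CPM in males, and 993 to 1559 and 608 to 954 CPM in females. The female fibroblast sums did not overlap, but they are mostly Ptgds, named here after its values were seen, with a mean of 1057 CPM in non-stressed and 630 CPM in chronic-stressed females. Among the other tested fibroblast markers in females, Dcn was lower by 0.44 on the log2 scale (edgeR, adjusted p = 0.0133). It stood at −0.44 with the trend removed (edgeR, adjusted p = 0.0157). Islr was at −0.33, Slc6a13 at −0.28, Igf2 at −0.03, and Col1a1, Col1a2 and Lum at 0.05, 0.10 and 0.11. None of these passed in the first fit. Of 8 choroid plexus markers, edgeR called 0 in either sex, with 1 in males and 0 in females at an unadjusted p under 0.05; their sum varied from 1548 to 8041 CPM over the libraries. Of the perivascular macrophage markers, 3 of 5 were tested, and edgeR called 0 in males (2 at an unadjusted p under 0.05) and 1, lower, in females, with sums from 7.54 to 14.6 CPM. The 5 blood cell markers gave 1 and 0 in males and 0 and 1 in females, or 3 and 0 and 0 and 0 with the trend removed, with sums from 61.2 to 333 CPM.

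Of 8 microglial markers, 0 were higher and 4 lower in males, and 1 and 4 in females; with the trend removed, 0 and 0 passed in males and 2 and 0 in females. Their sums ran from 376 to 428 and 341 to 365 CPM in males, and 347 to 453 and 348 to 449 CPM in females. Of 8 astrocyte markers, 2 and 2 passed in males and 3 and 1 in females, and 0 and 1 and then 1 and 2 with the trend removed. Their summed CPM did not overlap between conditions, from 3595 to 3862 and 4221 to 4626 in males, and 3254 to 4039 and 4239 to 4714 in females. Slc1a2, the main glutamate transporter of astrocytes, named here after its values were seen, made up most of that sum, with a mean of 2055 CPM in non-stressed and 2758 CPM in chronic-stressed males. Its log2 difference was 0.44 in males and 0.45 in females, and 0.03 and 0.04 with the trend removed. Gjb6, also named after its values were seen, was lower, at −0.32 and −0.65 (edgeR, adjusted p = 0.0256 and 0.000170). With the trend removed Gjb6 was at −0.11 and −0.43 and passed in females only. The median of the astrocyte list was 0.00 in males and 0.09 in females, and −0.09 and −0.07 with the trend removed. The 8 hippocampal markers gave 4 and 2 in males and 5 and 2 in females, or 4 and 0 and 5 and 0 with the trend removed. Their sums ran from 804 to 940 and 1008 to 1103 CPM in males, and 772 to 948 and 1044 to 1087 CPM in females, also without overlap. A large part of that rise was Zbtb20 (30730 bases), named here after its values were seen. Its mean went from 185 to 348 CPM in males and from 191 to 343 CPM in females. The log2 difference of Zbtb20 was 0.93 and 0.84, and 0.30 and 0.23 with the trend removed.

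Within groups, the 10 genes did not move as a block. Over the 45 pairs, Pearson's r between deviations from the group means in 16 libraries had a median of 0.14 and ran from −0.46 to 0.77, with 31 pairs above 0; without non-stressed female libraries 1 and 4 the median was 0.25, from −0.59 to 0.86, with 34 pairs above 0. The genes whose deviations were most like the mean deviation of the 10 were Pcbp3 (r = 0.917), Eefsec (0.884), Hook2 (0.868), Agap3 (0.867), Lypla2 (0.860), Syt3 (0.858), Gga1 (0.853), Mapk8ip1 (0.850), Pgpep1 (0.849) and Fscn1 (0.846). None of them is in the vessel or cell type lists. These values are the highest of 11246 genes, whose median r was −0.00, and are given as a description, since all points share their libraries and depth.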

How the data were processed

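RNA was measured in 16 libraries made from 1 µg of total RNA with a VAHTS Universal V8 kit, per the labels' protocols. The authors deposited whole-number counts per gene, and FPKM, which they derived from those counts by exonic length and library total. Alignment software (HISAT2 2.0.1), counter (HTSeq 0.6.1) and build (GRCm39) are taken from the submitters' processing notes; the strand setting and annotation release are not given in the sources used here.

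The 17569 genes that reached 0.5 FPKM in 4 or more libraries, among them all 10 members, were tested on the deposited counts. The tool was edgeR 4.0.16 (R 4.3.3), with TMM scaling, the quasi-likelihood test, 4 group means over 16 libraries and Benjamini-Hochberg adjustment. The script was tested on simulated data. Every 2 replicates of a group differed beyond counting noise, with a chi-square per degree of freedom of 2.96 or more. Alternatives were DESeq2 1.42.0, limma 3.58.1 on log2(FPKM + 0.5), log2(FPKM + 0.1) or log2(TPM + 0.5), other scalings and filters, thinning, a replicate block, libraries left out, and per-library splines of exonic length and GC (GENCODE M21, 98.8% of genes) as offsets. Promoters came from RefSeq (GRCm38.p6). Figures used matplotlib 3.10.9.

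The members and lists were chosen with earlier results of these data known. From each vessel list, up to 4 genes are named by smallest p in females, among those that passed in the same direction in both sexes with mean FPKM of at least 1. Mfsd2a, Slc2a1, Foxc1, Klf2, Nr2f2 and Ets2 were named in addition, after their values were seen. Marker lists are given as counts and sums, with single genes named after their values were seen.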

Additional observations from a re-analysis of the deposited data

Results flagged for a closer look

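Tek was at 4.90 CPM in non-stressed male library 1, against 6.87 CPM in the nearest of the other 3 libraries of its group, so this library stood apart from the rest of its group. Each of the 10 genes was checked in each of the 4 groups, 40 checks in all, and chance alone flags about 1 in 20. Without that library, the log2 stress difference of Tek in males was −0.11 instead of 0.01, and it passed in neither case.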

How the results depend on the processing

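The number of the 10 genes called by edgeR was 4 in each sex. With the length trend removed, with the length and GC trend removed, and with the replicate block added to the latter, it was 1 in males and 2 in females. With only the length trend removed, 4902 of all 17569 tested genes passed for males and 6450 for females. With the replicate block and the length and GC trend removed, 5353 of 17357 genes passed for males and 6639 for females. With each library left out in turn, edgeR called 3 to 6 of the 10 genes in males and 3 to 7 in females. The number of all genes called moved as well over these fits. It lay between 5847 and 8583 for males, and for females between 7135 and 9829. Without non-stressed female libraries 1 and 4, 6 of the 10 genes passed in males (4 higher, 2 lower) and 3 in females (0 and 3). Of all genes, 9311 then passed in males, against 6976 with all libraries, and 5594 in females, against 8668. No consistent sign of pairing by replicate number was seen: 4 of 24 correlations of same-numbered libraries were over 0.1 (from −0.23 to 0.17). These correlations cannot exclude that same-numbered samples were paired. The replicate block left 4 calls in each sex, with Flt1 passing in females (0.32, adjusted p = 0.0353) and Slco1a4 not (adjusted p = 0.0558). Of all 17569 tested genes, 6929 passed with that block in males and 8592 in females. Between the sexes and for the interaction the count was 0 under every alternative run.

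Values that changed sign, mostly close to 0, were these, and the cause was not tested. On TPM they were Pecam1 in males (0.0365), Slco1c1 in males (0.15) and females (0.25), and Tek in females (0.10). Slco1c1 in females was also at 0.0207 with no filter, 0.000622 with limma on FPKM at a pseudocount of 0.5 and 0.00155 at 0.1, and with a library left out it ran from −0.16 to 0.14, against −0.16 to 0.0651 in males. Cdh5 in females was at −0.12 without non-stressed female libraries 1 and 4. Tek in males was at −0.00561 with library totals alone, −0.00110 with limma on FPKM, and from −0.11 to 0.0784 with a library left out. With the length trend removed, Tek in males was at −0.0126, Flt1 in females at −0.13 and Itm2a in males at 0.0847. With GC added, they were at −0.0294, −0.21 and 0.17, with Kdr in females at −0.0529 and Itm2a in females at 0.0572; with the replicate block as well, the 5 values were −0.0286, −0.18, 0.17, −0.0629 and 0.0581. Counts were lowest for Cdh5, with as few as 54 in a library, and Tek, with as few as 80.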
